A study of Mus musculus with 23 samples.

Results

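Type II pneumocytes (AT2 cells) of the mouse lung were compared between postnatal day 28 (P28) and postnatal day 14 (P14) for their microRNAs. The samples were chosen by cell type and age in the labels, which gave 3 AT2 samples at P28 and 2 at P14 out of 23 samples in the series. The mice were wild-type C57BL6, the tissue was lung, and no treatment or transgene is named. AT2 cells were sorted on CD326 and endothelial cells (EC) on CD31, by their descriptions, and EC were also profiled at P28 and P14 with 2 samples each. The remaining samples are the same cell types at embryonic days 16.5 and 18.5 and at postnatal days 1 and 7. Nothing in the labels tells whether replicates are separate animals or pools of animals. The p-values therefore reflect only how far these samples scatter, and that scatter may be technical.

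MicroRNAs are short RNAs that guide Argonaute proteins to partly complementary sites in messenger RNAs, which are then repressed. AT2 cells make and secrete pulmonary surfactant and renew the alveolar epithelium by giving rise to the flat type I cells. CD326 (EpCAM) is a surface protein of epithelial cells in general, so the sort itself does not separate AT2 cells from other epithelial cells. In the mouse the weeks between these ages follow the main wave of septum formation, when alveolar walls thin and their capillaries mature. The files do not pair the panel's probe identifiers with microRNA names. MicroRNAs are therefore given by identifier, few are singled out, and no mature sequence or cell type marker could be assigned to a row.

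The nCounter panel counts probe barcodes without amplification, and the deposited values are those counts times 1 factor per sample. Recovered microRNA counts were 166116 and 496475 in P14 replicates 1 and 2, and 26640, 243941 and 411535 in P28 replicates 1, 2 and 3. Of these 5 samples 2 stand apart, both at P28. P28 replicate 1 had the fewest counts of the series, its 6 graded ERCC controls summed to 2190 against 19965 to 39390 in the other 4, and its 8 low control rows were all at 1 count. A value there moves in steps of 7.43, the worth of 1 count, and its background limit (the mean of the 8 low rows plus 2 SD) is 1 count. In P28 replicate 3 the single probe MIMAT0003484 took 62.8% of the microRNA counts. The main calls and several of the counts are given with and without these samples, and the other counts with all 5 samples only.

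Few microRNAs separated P28 from P14 beyond the spread of the samples. Of 302 microRNAs tested, 6 passed the threshold, which is 1.99% (limma, Benjamini-Hochberg adjusted p under 0.05), 2 of them higher at P28 (0.662%) and 4 lower (1.32%). At P28, MIMAT0003470 and MIMAT0000536 were higher, and MIMAT0000567, MIMAT0003186 and 2 further microRNAs were lower. In all 6 the P28 samples lay beyond both P14 samples and also beyond each of the 8 AT2 samples of the earlier ages. Over the 302, the 3 P28 samples lay beyond all 10 other AT2 samples for 44 microRNAs (14.6%), 17 above and 27 below, against 58 for the P28 samples without replicate 1 and 60 without replicate 3, where fewer samples have to agree.

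MIMAT0000536 had values of 566 and 490 at P14, and of 1405, 1933 and 1646 at P28. The groups were well apart and the P28 samples close together, although the first of these rests on 189 counts. The log2 rise, on the log2(value + 1) scale of all fitted changes here, was 1.64 ± 0.32 (SE), or 3.12-fold (limma, adjusted p = 0.0124). From the youngest to the oldest age its geometric means in AT2 cells were 114, 93.1, 164, 254, 527 and 1647. It was thus highest at P28, and above background in all 13 AT2 samples.

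MIMAT0003470 had values of 8.85 and 11.9 at P14, and of 81.8, 40.5 and 645 at P28. All 3 P28 samples were above their background limits, against 1 of 2 at P14, and P28 replicate 3 was far above the others. The fitted log2 rise was 3.53 ± 0.82 (limma, adjusted p = 0.0229), and with P14 replicate 1 set to its own background limit the rise was 9.81-fold between geometric means. With values below the highest background limit of the 5 samples raised to it, the log2 rise was 2.60 (limma, adjusted p = 0.0783). With weighted samples it was 2.81 (limma, adjusted p = 0.0805), and neither of these passed. Without P28 replicate 3 the difference was 2.38 and missed the threshold (limma, adjusted p = 0.0745), as it did without P14 replicate 2 (3.73, adjusted p = 0.0540). In the 8 AT2 samples of the earlier ages it stood between 4.43 and 33.6.

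MIMAT0000567 had values of 258 and 132 at P14, and of 29.7, 54.0 and 66.8 at P28. The lowest of these is 4 counts in P28 replicate 1, and no P28 sample reached a P14 sample. The microRNA fell by 1.93 on the log2 scale (SE 0.44), or 3.82-fold (limma, adjusted p = 0.0229). Without P28 replicate 1 the difference was -1.60 and missed the threshold (limma, adjusted p = 0.104). The earlier AT2 samples stood between 222.3 and 678.6.

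MIMAT0003186 had values of 193 and 113 at P14, and of 29.7, 41.3 and 48.9 at P28. Again the P28 samples were all low, and the lowest of them was 4 counts. It fell by 1.89 (SE 0.36), or 3.70-fold (limma, adjusted p = 0.0124), and kept its call without P28 replicate 1 (-1.70, limma, adjusted p = 0.0362) and without P28 replicate 3 (-2.05, adjusted p = 0.0200). From the youngest to the oldest age its geometric means were 498, 648, 444, 176, 147.7 and 39.1, so the P28 level was the lowest of the 6 ages. The earlier AT2 samples stood between 173 and 743.

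The 2 further microRNAs that fell had log2 changes of -1.85 ± 0.41 and -1.74 ± 0.40 (limma, adjusted p = 0.0229 for both). The first was among the abundant ones, with 2480 and 2564 at P14 and 892, 955 and 397 at P28, and without P28 replicate 3 it stood at -1.45 (limma, adjusted p = 0.0722). The second was low, with 34.1 and 29.1 at P14, above background in both, and 7.43, 7.50 and 11.9 at P28, above background in none. With those samples set to their own limits, which is 1 count in P28 replicate 1, it fell 2.37-fold. With values below the highest background limit of the 5 samples raised to it, the second microRNA stood at -0.595 and missed the threshold (limma, adjusted p = 0.388). Without P28 replicate 1 it stood at -1.63 (limma, adjusted p = 0.0832). All 6 microRNAs also varied over the 6 ages of AT2 cells, as did 49% of the microRNAs tested (limma F-tests, adjusted p under 0.05). The F-test includes the P14 and P28 samples and is not separate evidence.

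**Figure D1:**
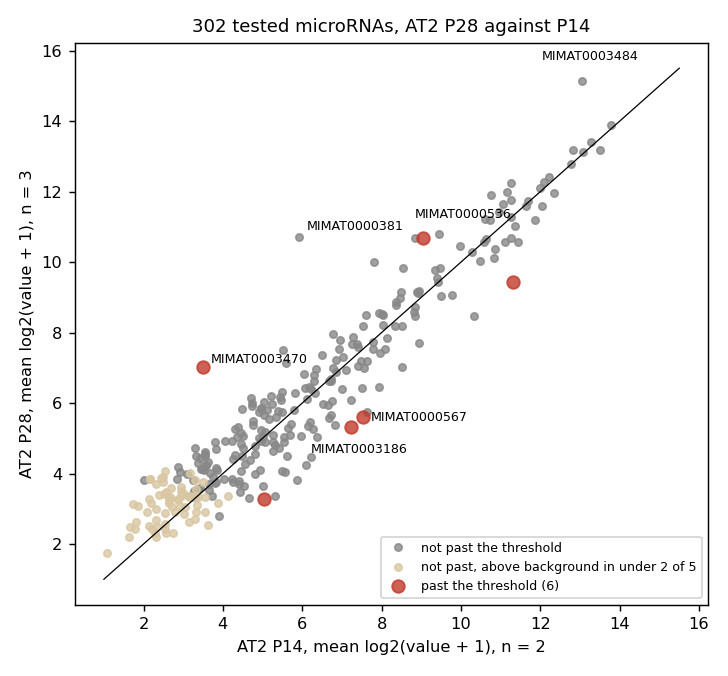
Mean log2(value + 1) of the 302 tested microRNAs in AT2 cells, P14 (n = 2) on the x axis and P28 (n = 3) on the y axis, with the line of equal values. The 6 microRNAs past the threshold are red, and those above background in fewer than 2 of the 5 samples are tan (68, with 53 of them above the line). MIMAT0003484 and MIMAT0000381 lie far above the line without passing.

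**Figure D2:**
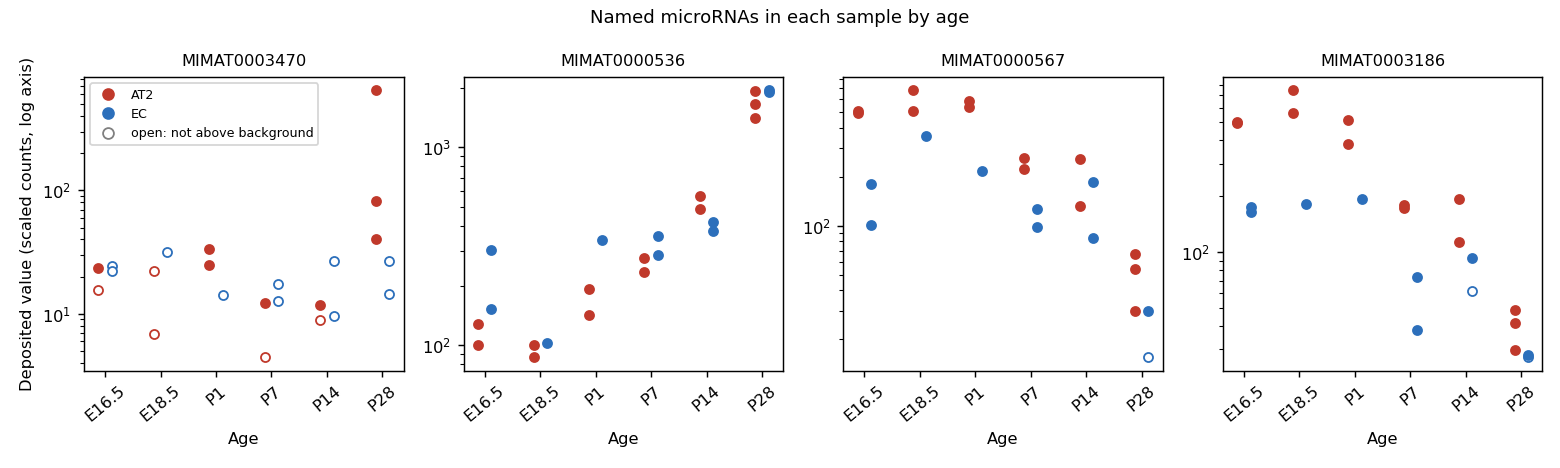
Deposited values (log axis, 1 panel and scale per microRNA) in each AT2 (red) and EC (blue) sample at the 6 ages, with open points for samples not above their background limit. In each panel the 3 AT2 points at P28 lie beyond all other AT2 points.

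The number of calls rested on which samples entered the fit. Without P14 replicate 1 no microRNA passed by limma, 33 had an unadjusted p under 0.05, and the lone P14 sample was then assumed to vary like the other groups. In the fit of all samples 55 had an unadjusted p under 0.05 (18.2%), 29 higher and 26 lower at P28. Without P14 replicate 2 there were 14 calls, without P28 replicate 2 there were 13, without P28 replicate 1 there were 5, and without P28 replicate 3 there were 4. Leaving out both P28 replicates 1 and 3 left 0 calls (28 at an unadjusted p under 0.05). The 5 samples on their own gave 0 calls as well (limma, 43 at an unadjusted p under 0.05), and the 13 AT2 samples on their own gave 16, among them all 6. The balance of directions moved with the scaling. As deposited it was 2 higher and 4 lower, with each sample shifted to the same median 2 and 10, with quantile normalization 2 and 8, and with edgeR on the recovered counts 3 and 19, a total of 22 (7.28%) that held all 6. Sample titles carry the prefix 15 for P28 replicates 1 and 2 and 16 for P28 replicate 3 and both P14 samples, and what it stands for is not given. With it as a covariate 11 microRNAs passed, 3 higher and 8 lower, among them 4 of the 6, while MIMAT0000567 stood at -1.33 (limma, adjusted p = 0.0841). The P28 sample of prefix 16 is a single one, so there is no test within a prefix.

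With the calls included, 62 microRNAs were higher in all 3 P28 samples than in both P14 samples (20.5%), and 35 were lower (11.6%). Without P28 replicate 1 these counts were 90 and 48, and without P28 replicate 3 they were 98 and 43. Fewer P28 samples have to agree there, so the larger counts do not show a stronger separation. Of the 164 that were above background in all 5 samples, 40 were higher and 20 lower in all 3 P28 samples than in both P14 samples. Their median log2 difference was 0.17, against 0.20 over the 302. A further 17 microRNAs had an adjusted p between 0.05 and 0.1, which makes 23 under 0.1, 7 higher and 16 lower at P28 (limma). The lowest adjusted p without a call was 0.0543.

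The direction depended on the level of the microRNA. In ranks by mean log2 value over all 23 samples, of the 50 highest 3 were higher and 3 were lower at P28 by 2-fold or more, with a median log2 difference of 0.012. For these 50, 3 were higher and 4 lower without P28 replicate 1, and 2 were higher and 5 lower without P28 replicate 3. Of ranks 51 to 100, 4 were higher and 8 lower, and of the next 100, 7 were higher and 16 lower by that margin. Of the 102 lowest, 22 were higher and none lower, with a median of 0.54. Of these 102, 18 were higher without P28 replicate 1 and 24 without P28 replicate 3, and again none was lower. The background moved the same way. The mean of the 8 low control rows times the sample's factor was 5.21 and 4.04 at P14, and 7.43, 6.66 and 8.20 at P28. Over the 248 microRNAs that were above background in no sample of the series the median log2 difference was 0.60. Its part in the excess of rises among the low microRNAs was not tested.

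By the share of 2-fold differences, most samples of the same age were closer than samples of different ages, but not by correlation. Among microRNAs above background in both samples of a pair, 45 of 201 (22.4%) differed 2-fold or more between the P14 replicates. Among P28 replicates the share was 13.7% for replicates 1 and 2, 19.2% for replicates 2 and 3, and 32.2% for replicates 1 and 3. Among the 6 pairs of a P14 and a P28 sample it ran from 26.4% to 37.6%. Thus 3 of the 4 pairs of the same age lay below all 6 pairs of different ages, and the exception joins the 2 samples that stand apart. Pearson correlations of log2(value + 1) over the 302 tested microRNAs overlapped between the kinds of pair. They were 0.935 within P14, 0.921 to 0.956 within P28 and 0.885 to 0.953 between ages. The highest between ages joined P14 replicate 2 and P28 replicate 2.

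MIMAT0003484 had values of 12504 and 5651 at P14, and of 10683, 14190 and 307999 at P28. One P28 sample was 21.7 times the next of the 5, and the other P28 samples lay among or just above the P14 samples. Its share of the microRNA counts was 5.95% and 3.83% at P14, and 5.39%, 7.76% and 62.8% at P28 (95% Wilson intervals 5.84 to 6.07, 3.78 to 3.89, 5.13 to 5.67, 7.65 to 7.86 and 62.6 to 62.9, for counting error only). The fitted log2 difference was 2.10 ± 1.05 with an interval of -0.12 to 4.31 (95%), and did not pass (limma, adjusted p = 0.297). Without P28 replicate 3 it was 0.55 ± 0.74 (limma, adjusted p = 0.720). Outside these 5 samples the highest share in AT2 cells was 34.1%, in P1 replicate 2, and in EC it was 4.71%.

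The same sample held other microRNAs at unusual levels. In P28 replicate 3, 5 microRNAs were at least 4-fold above each of the other 4 samples, taken at no less than the highest background limit of the 5 (20.5). In each of the other samples at most 1 was. They were MIMAT0003484, MIMAT0003470 and 3 others, whose values of 11262, 4209 and 101.4 were 14.0, 7.29 and at least 4.94 times the next of the 5. All 5 were also higher there than in any of the other 22 samples, by 3.81 to 7.89 times. The 3 others did not pass between P28 and P14 (log2 1.86, 2.21 and 1.52, limma, adjusted p = 0.255, 0.0629 and 0.411).

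Over 1 fixed list, the 100 microRNAs with the highest mean value over all 23 samples, the geometric mean was taken in each sample. It ran from 548 to 577 among the 5 samples as deposited, P28 replicate 3 included. A scaling to the microRNA total is affected, because P28 replicate 3 has 411535 counts with the probe and 153271 without it. With the probe in the total, 1 microRNA was higher and 11 were lower at P28, and the median log2 difference was -0.30. Without the probe in the total, none was higher and 3 were lower, 2 of them among the 6 (limma), and the median was 0.10. Apart from the probe, the 10 highest microRNAs of P28 replicate 3 took 50.3% of the remaining counts, within the 45.02% to 52.4% of the other 4 samples.

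**Figure D3:**
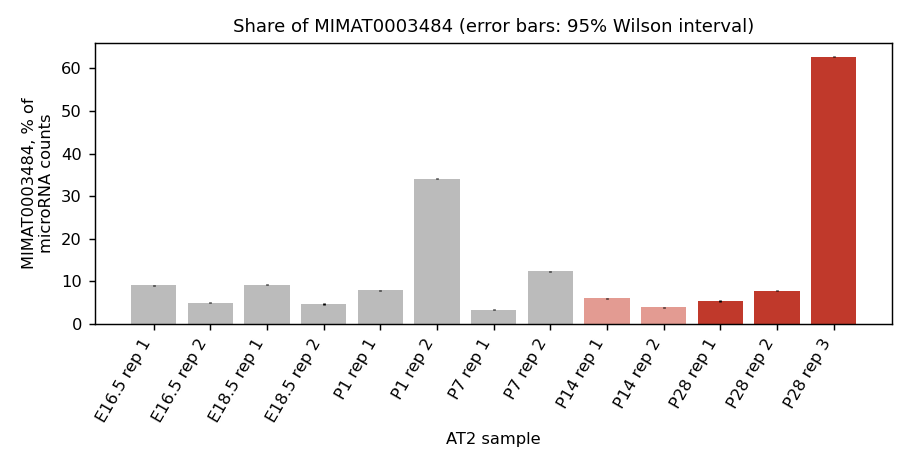
Share of MIMAT0003484 in the microRNA counts of each of the 13 AT2 samples, with 95% Wilson intervals that are barely visible at this scale (P28 dark red, P14 light red, earlier ages grey). P28 replicate 3 stands at 62.8%, P1 replicate 2 at 34.1%, and the other P14 and P28 samples between 3.83% and 7.76%.

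MIMAT0000381 had the largest fitted difference without a call, and was picked because of its values. Its values were 1.26 and 1592 at P14, and 892, 2349 and 2180 at P28. P14 replicate 1 held 1 count of it, and the other P14 sample lay among the P28 samples. Each embryonic AT2 sample and each EC sample stood at 1 count or at a value that had been set to 1. Neither these samples nor P14 replicate 1 were above background. The AT2 samples of P1 and P7 stood between 889 and 1471. With P14 replicate 1 set to its background limit the geometric means differed at least 10.9-fold, and the fit did not pass (limma, adjusted p = 0.0759). Without P14 replicate 1 the log2 difference was 0.060 (limma, adjusted p = 0.971), so the difference is that of 1 sample.

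The same ages were compared in EC to see whether the AT2 changes were shared. Between P28 and P14 of EC 8 of the 302 passed (2.65%), 2 higher and 6 lower (limma). The EC count rested on single samples: without P14 replicate 1 it was 20 (7 higher, 13 lower), without P14 replicate 2 it was 4, all higher, and without P28 replicate 2 it was 3. Of the 6 microRNAs called in AT2 cells 2 were called in EC, and 2 were above background in all 4 EC samples. Fitted directions were the same in both cell types for 198 of the 302 (65.6%), a count that includes microRNAs not above background in EC. No sample is shared, but both EC samples of P28 and EC P14 replicate 2 carry the title ID of an AT2 sample of the same age. Only EC P14 replicate 1 does not. If the title ID marks a specimen, the EC comparison is not independent of the AT2 comparison. With the title ID as a random block 12 passed in EC, 5 higher and 7 lower (limma). MIMAT0000536 had EC values of 378.8 and 417 at P14 and of 1899 and 1935 at P28. Its rise there was 2.27 ± 0.36 (limma, adjusted p = 0.00165), and the difference between the cell types was -0.62 ± 0.48. MIMAT0000567 had 84.4 and 187 at P14 and 15.4 and 29.8 at P28 in EC, the first of these not above background. It was called lower at P28 of EC (limma, adjusted p = 0.0114), at least 2.85-fold with that sample set to its limit. MIMAT0003186 was above background in 1 EC sample of each age and missed the threshold there (limma, adjusted p = 0.0565).

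MIMAT0003470 was above background in none of the 10 EC samples, with values of 26.8 and 9.66 at P14 and of 27.01 and 14.4 at P28. Its direction in EC is therefore not measured, and the fitted difference between the cell types did not pass after adjustment (limma, unadjusted p = 0.0158, adjusted p = 0.919). The test of the difference called 0 of the 302 (0%, limma), with 9 at an unadjusted p under 0.05, and edgeR called 0, with 17. With the title ID as a random block it also called 0, with 18. No change is therefore shown to be particular to AT2 cells.

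**Figure D4:**
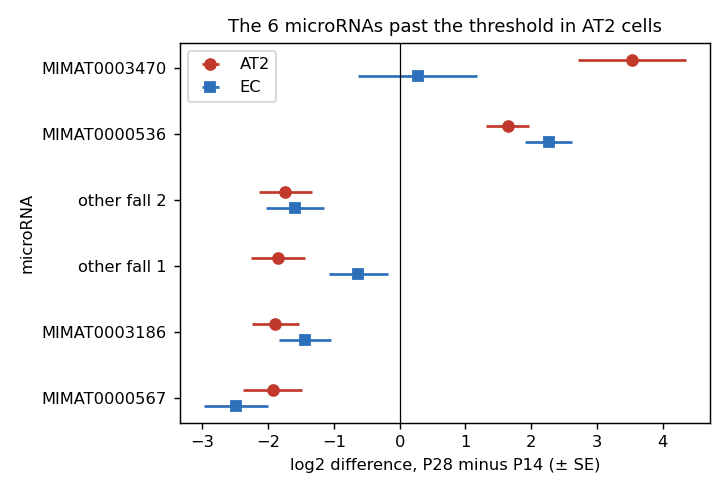
Fitted log2 difference between P28 and P14 with its SE for the 6 microRNAs past the threshold in AT2 cells (red), with the same contrast in EC (blue). The microRNAs marked other fall 1 and 2 are the further ones that fell, in the order of the text. EC values not above background enter as deposited: MIMAT0003470 was above background in none of the 4 EC samples and other fall 2 in 1, so their EC points are not measured differences.

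The panel also carries probes for 4 housekeeping messenger RNAs. Actb, cytoplasmic beta-actin, had values of 1645 and 812 at P14 and of 758.3, 1683 and 1906 at P28. B2m, beta-2-microglobulin, the invariant chain of MHC class I molecules, had 133 and 99.2 at P14 and 89.2, 210 and 72.8 at P28. Gapdh, a glycolytic enzyme, had 31.6 and 30.3 at P14 and 14.9, 58.5 and 51.3 at P28, the first of these being 2 counts. In each of these the P28 samples lay on both sides of the P14 samples.

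Rpl19, which encodes a ribosomal protein, had 820 and 262 at P14 and 200.7, 566 and 1320 at P28, again with overlap. The log2 differences were 0.22 for Actb, -0.049 for B2m, 0.20 for Gapdh and 0.19 for Rpl19 (exact permutation tests, two-sided, p = 0.7, 1, 1 and 0.9, all 1 after adjustment over 6 tests). With 3 samples against 2 no p under 0.1 is possible.

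The 3 positive ligation controls, synthetic RNAs added during sample preparation, differed between the ages relative to the microRNAs. Their summed values after the deposited scaling were 16931 and 17146 at P14, and 36978, 60443 and 48040 at P28, with no overlap. The log2 difference was 1.48, or 2.79-fold (exact permutation test, p = 0.1, adjusted to 0.6 over 6 tests). MicroRNA counts without MIMAT0003484 were 11.7 and 8.27 per ligation control count at P14, and 5.07, 2.79 and 3.805 at P28. Per count of the graded ERCC controls they overlapped, with 7.82 and 14.1 at P14 and 11.5, 5.71 and 6.18 at P28. The ligation controls per graded ERCC count also overlapped, with 0.671 and 1.71 at P14 and 2.27, 2.05 and 1.62 at P28. In EC the log2 difference in the ligation controls was 0.77. These rows were examined after their values were seen, and the amount of RNA that entered each assay is not given in the sources used here. All microRNA and messenger RNA values above are relative to the microRNA level of their sample. A change of all microRNAs together, fewer cells, less RNA per cell and a shift of the ligation controls themselves cannot be told apart here.

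**Figure D5:**
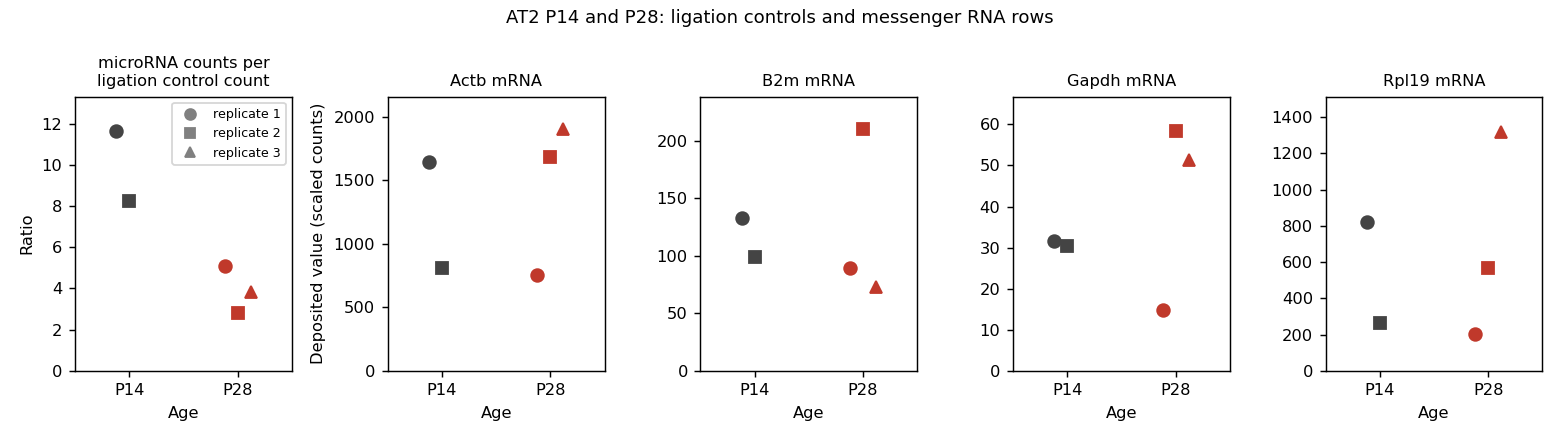
MicroRNA counts without MIMAT0003484 per count of the 3 positive ligation controls (left, a ratio) and deposited values of 4 messenger RNAs (scaled counts) in each AT2 sample of P14 (black) and P28 (red), with 1 symbol per replicate number and axes from 0. The ratio is lower in all P28 samples than in both P14 samples, and the messenger RNA values overlap.

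P14 replicates 1 and 2 had 209 and 233 microRNAs above their own background limits. P28 replicate 1 had 244, the most of the 5, in a sample where 2 counts are enough, P28 replicate 2 had 207, and P28 replicate 3 had the fewest. The mean difference was -5.33 (exact permutation test, p = 0.8). At 1 limit for the 5 samples, 20.5, the numbers were 188 and 177 at P14 and 190 in the lowest P28 sample, with no overlap and a mean difference of 11.5 (exact permutation test, p = 0.1, the smallest that 3 samples against 2 can give). The scaled background mean was also higher at P28, at least 6.66 against at most 5.21 at P14. Its part in this difference was not tested.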

How the data were processed

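Per the labels' protocols, RNA of sorted lung cells was run on an nCounter panel of mouse microRNAs. The build is mm10 in the submitters' processing notes. How the counts were normalized is not given in the sources used here. What the authors deposited is a signal, namely counts times 1 factor per sample for every row but the ERCC controls, so whole counts were recovered (100% of 13861 values within 0.1 of a whole number), and values under 1 had been set to 1 in 9 columns. The 14 ERCC rows are unscaled. The background limit of a sample is the mean of its 8 low ERCC rows plus 2 SD, and microRNAs above it in at least 2 of 23 samples were tested.

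The main test was limma 3.58.1 (R 4.3.3, intensity trend) on log2(value + 1) with 1 mean for each of 12 groups over all 23 samples, because the values are scaled. Tests are two-sided, with Benjamini-Hochberg adjustment over all 302 microRNAs. Named microRNAs are the 2 largest calls per direction whose higher side was above background, and MIMAT0003484. The members, tests and rule were chosen with earlier results of these data known. The microRNA lists planned by name (cell type markers and families) matched 0 identifiers and gave no result. The 4 messenger RNAs were named by accession from a RefSeq table (4 of 4 matched). The limma and edgeR 4.0.16 steps were tested on simulated counts. Alternatives changed the scaling, background, filter, pseudocount (10), trend, weights, title ID block, title prefix and samples.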

Additional observations from a re-analysis of the deposited data

How the results depend on the processing

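The 6 microRNAs called between P28 and P14 of AT2 cells kept their direction under all 22 alternatives run. Many of these could not have reversed it. Leaving out samples could not, because the 2 ages did not overlap in these microRNAs. Changes to the filter or trend, and fits of the 5 or the 13 AT2 samples only, left the fitted difference itself unchanged. The number of calls did not hold. It was 12 with a median shift, 22 with edgeR on the recovered counts, 10 with quantile normalization, 12 with the microRNA total, 3 with that total less MIMAT0003484, 16 with the 13 AT2 samples only, 0 with the 5 samples only, 3 with the mean background subtracted, 11 with the title prefix as a covariate, and 0 without P28 replicates 1 and 3, an alternative chosen after seeing the data. Leaving out single samples gave 0 to 14 calls in AT2 cells, 3 to 20 in EC and 0 to 1 for the difference between the cell types. The other alternatives gave 5 to 7. Without P14 replicate 1 or with the 5 samples only fewer samples enter, and for the rest the cause was not tested. MIMAT0000536 kept its call in 17 of the 22 (log2 1.075 to 1.87), MIMAT0003186 in 18 (-2.44 to -1.50), MIMAT0000567 in 14 (-2.49 to -1.33) and MIMAT0003470 in 14 (1.88 to 4.51), and MIMAT0003484 had no call in any. Of the 2 further microRNAs that fell, the abundant one kept its call in 18 (-2.42 to -1.40) and the low one in 12 (-3.39 to -0.595).

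The messenger RNA differences changed sign with left-out samples: -0.29 to 0.73 for Actb, -0.51 to 0.25 for B2m, -0.16 to 0.82 for Gapdh and -0.63 to 1.02 for Rpl19. Relative to the ligation controls, an alternative chosen after seeing the data, they were -1.26, -1.53, -1.28 and -1.29 (exact permutation tests, p = 0.1, 0.1, 0.2 and 0.4, with Rpl19 overlapping). This takes the same 1.48 of the ligation controls from each and is no separate result on the messenger RNAs. The difference in the number of microRNAs above background was 11.5 at 1 limit and -19.5 to 6.67 with samples left out. Precision is limited by 2 samples at P14 and by 26640 counts in P28 replicate 1. No paired analysis was possible because the labels give no replicate numbers that link P14 to P28 samples.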
